A study of Mus musculus with 9 samples.

Results

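Nonsense-mediated mRNA decay (NMD) is the pathway that removes mRNAs on which translation stops at a stop codon far from the end of the message or upstream of an exon junction. The 9 genes described here encode its core factors: the RNA helicase UPF1, its partners UPF2, UPF3A and UPF3B, the UPF1 kinase SMG1 with its subunits SMG8 and SMG9, and SMG5 and SMG6, which act on phosphorylated UPF1. They were taken by symbol from the table of counts per gene, and all 9 of them were among its 20189 genes and among the 20143 that were tested.

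Wild-type ES cells of the mouse line E14 went without Thr or without Cys for 3 h or were left unstarved, and paired-end reads of polyadenylated RNA were obtained from 3 libraries per group. E14 is a single pluripotent line, and the labels do not say whether the libraries of a group came from separate cultures, so that p-values measure the spread between these libraries, which may be technical. The unstarved columns of the count table are labelled as wild type with a code that no source used here explains, and they were matched to the unstarved samples by the genotype and replicate number, on which each comparison with unstarved cells rests. Levels are in CPM, that is, counts relative to the effective library total from TMM normalization. A gene was called when its adjusted p (edgeR's quasi-likelihood test, Benjamini-Hochberg over all genes tested) was 0.05 or less, with no fold threshold.

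As background, UPF1 scans the message and is recruited where termination is slow. UPF2 links UPF1 to UPF3A or UPF3B, 2 related proteins that bind the exon junction complex, and UPF3B is the more active of the pair in decay. SMG1 phosphorylates UPF1, SMG8 and SMG9 hold SMG1 in a restrained state, SMG6 cuts the message and SMG5 recruits decapping and deadenylating enzymes. NMD slows when the translation factor eIF2 is phosphorylated under stress, and the mRNAs of several of its own factors are known substrates of the pathway. The comparisons address which of these mRNAs differed after loss of a single AA, and whether loss of Thr and loss of Cys differed in this.

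Total counts ran from 48763102 to 74962733 in the Thr-starved, from 57700492 to 62657358 in the Cys-starved and from 54294288 to 61459894 in the unstarved libraries. Even counts made up 67.8% of the values from 1 to 20. Whether both reads of a pair were counted is not stated in the sources used here and was not tested, and if they were, a count is not an independent molecule. Each member had at least 1331 counts in each library. The summed level of 8 ES cell markers lay between 3728 and 4217 CPM in all 9 libraries, whereas the summed markers of fibroblasts, endoderm, mesoderm and neural cells lay at 9.48 to 14.9, 3.17 to 5.43, 2.63 to 7.49 and 15.5 to 25.8 CPM. Of these markers of other cells, Postn and Neurog2 were not among the tested genes. The ES marker sum itself separated the groups, at 3728 to 3754 CPM with Cys, 3907 to 3932 CPM unstarved and 4137 to 4217 CPM with Thr. Single ES markers did not move together. With Thr, Pou5f1 (log2 fold change -0.17), Nanog (-0.42), Dppa5a (-0.12) and Tdgf1 (-0.12) were called lower. Zfp42 (0.12), Esrrb (0.43), Sox2 (0.44) and Klf4 (0.85) were called higher. With Cys, Zfp42, Esrrb and Klf4 were called higher and the other ES markers lower. Endoderm markers were at 3.17 to 3.41 CPM in unstarved, 4.30 to 5.07 CPM in Cys-starved and 4.63 to 5.43 CPM in Thr-starved libraries. Neural markers were also lowest in the unstarved libraries, at 15.5 to 16.5 CPM, and fibroblast and mesoderm markers were lowest in the Thr-starved libraries, at 9.48 to 10.6 and 2.63 to 2.83 CPM. Their part in the results below was not tested. In bulk libraries, fewer cells of a type and less RNA per cell cannot be told apart.

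Thr starvation changed all 9 NMD factors, 8 of them upward and Smg8 downward. Among all genes tested, 63.0% were called in this comparison, 31.1% higher and 31.9% lower. The members are expressed above 5 CPM, and of the 11410 genes that averaged 5 CPM or more, 80.6% were called, including 41.5% that were higher. The median log2 fold change was 0.63 over the 9 members and 0.01 over those 11410 genes. The Thr-starved libraries of all 9 members lay outside the range of the unstarved libraries. This was the case for 66.5% of all genes and 82% of those averaging 5 CPM or more. The members' summed level was 868 to 878 CPM in unstarved and 1261 to 1299 CPM in Thr-starved libraries.

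Cys starvation changed 8 of the 9 factors, 6 upward and 2 downward, by smaller amounts. Of all genes tested, 36.3% were called, 17.5% higher and 18.8% lower, and the share was 55.0% where genes averaged 5 CPM or more. The median log2 fold change was 0.20 over the members and -0.02 over the genes of at least 5 CPM. The libraries of 8 members did not overlap those of unstarved cells, against 46.4% of all genes and 63.7% of those averaging 5 CPM or more. The summed level was 975 to 1014 CPM. With the size factors that the authors deposited in place of TMM, the share of higher genes among those called fell to 36.8% from 48.2%, whereas the members kept their directions and 8 of them were called.

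Compared with each other, the Thr-starved libraries were higher than the Cys-starved ones in 7 members and lower in 1, Smg8, with Smg1 not called. In this comparison 62.0% of all genes were called, 30.4% higher and 31.6% lower, and 80.6% of the genes averaging 5 CPM or more. The libraries of 8 members did not overlap, which held for 65.8% of all genes and 81.6% of those averaging 5 CPM or more. The median log2 difference over the members was 0.43, beside 0.04 over the genes of at least 5 CPM. Both starvations were compared with the same 3 unstarved libraries, so their values are given side by side.

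**Figure D1:**
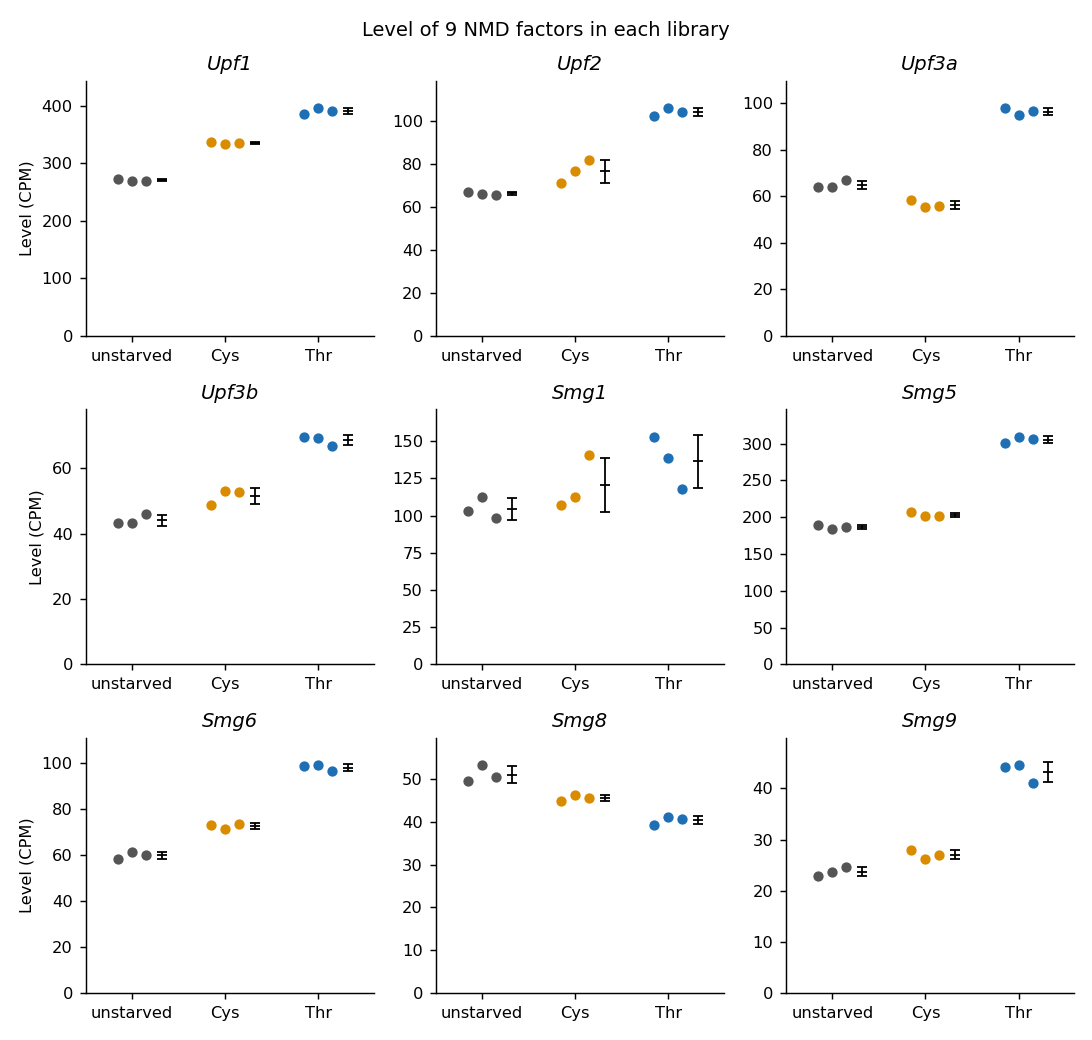
Level of each NMD factor in CPM (vertical axes, from 0) in the 3 unstarved, 3 Cys-starved and 3 Thr-starved libraries (points), with the mean and SD beside them. Smg8 steps downward from unstarved to Thr, Upf3a is lowest with Cys, and the 3 libraries of a group lie widest apart for Smg1.

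Upf1 encodes the helicase at the centre of the pathway and had the highest level per kb of exon in every group (ENSMUSG00000058301, GRCm38 chr8:70331525-70353278, minus strand, 24 exons). It stood at 272.6, 269.9 and 269.7 CPM in the unstarved, 336.6, 333.9 and 335.1 CPM in the Cys-starved and 385.6, 395.9 and 390.7 CPM in the Thr-starved libraries. The 3 groups were fully separated, with Cys between unstarved and Thr. The log2 fold change was 0.53 with Thr (SE 0.021, adjusted p = 5.3e-16) and 0.31 with Cys (SE 0.021, adjusted p = 8.6e-11). The Cys value was the largest increase of any member with Cys starvation. The direct difference of Thr from Cys was 0.22 (adjusted p = 2.6e-09). Offsets for the trend with GC content and exonic length raised the Thr value to 0.86 and the direct difference to 0.59, both still called. Upf1 shares 68 exonic bases with Cers1 and 63 with Gdf1 on the opposite strand, and the strand setting of the counting is not stated in the sources used here, but Cers1 held 0.798 CPM on average.

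Upf2 encodes the bridge between UPF1 and the UPF3 proteins (ENSMUSG00000043241, chr2:5951469-6056703, plus strand, 22 exons). Its level was 67.1, 66.3 and 65.8 CPM in unstarved, 71.3, 76.8 and 81.9 CPM in Cys-starved and 102.3, 105.9 and 104.2 CPM in Thr-starved libraries. The Cys-starved libraries spread more than the others, but all 3 lay above the unstarved ones and below the Thr-starved ones. Upf2 rose by 0.65 on the log2 scale with Thr (SE 0.037, adjusted p = 4.9e-13) and by 0.21 with Cys (SE 0.037, adjusted p = 0.00011), and the direct difference was 0.44 (adjusted p = 3.9e-10).

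The paralogs Upf3a and Upf3b both rose with Thr starvation and moved apart with Cys starvation. Upf3a (ENSMUSG00000038398, chr8:13785615-13799193, plus strand, 9 exons) had 64.1, 63.9 and 67.1 CPM in unstarved, 58.4, 55.3 and 55.8 CPM in Cys-starved and 97.9, 95.0 and 96.7 CPM in Thr-starved libraries. It was thus lowest with Cys and highest with Thr, without overlap between the groups. Its log2 fold change was 0.57 with Thr (SE 0.031, adjusted p = 2.5e-13) and -0.20 with Cys (SE 0.032, adjusted p = 2.5e-05). The direct difference of 0.77 (SE 0.031, adjusted p = 1.6e-15) was the largest of the 9 members in the main fit. With offsets for GC content and length it was 0.81, below those of Smg9 (1.10) and Smg5 (0.88).

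Upf3b (ENSMUSG00000036572, chrX:37091678-37110322, minus strand, 10 exons) had 43.3, 43.1 and 46.1 CPM in unstarved, 48.8, 53.1 and 52.7 CPM in Cys-starved and 69.7, 69.3 and 66.9 CPM in Thr-starved libraries. The order of the groups was the same as for Upf1 and Upf2, again without overlap. The increase was 0.63 with Thr (SE 0.038, adjusted p = 1.2e-12) and 0.22 with Cys (SE 0.038, adjusted p = 7.4e-05), with a direct difference of 0.41 (adjusted p = 1.9e-09).

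The balance of the paralogs, taken as Upf3a counts divided by Upf3b counts within a library, was 1.48, 1.48 and 1.46 in unstarved libraries. It was 1.198, 1.04 and 1.06 in Cys-starved and 1.40, 1.37 and 1.44 in Thr-starved libraries. The Cys-starved ratios lay below all others, and the Thr-starved ratios lay below the unstarved ones by a narrow margin. The ratio depends neither on depth nor on the scaling of the libraries, and it was not tested. It can depend on trends with GC content and length. With offsets for these, Upf3a rose by 0.58 and Upf3b by 0.49 with Thr, beside 0.57 and 0.63 without them. The narrow difference with Thr therefore did not keep its direction under the offsets. With Cys, the log2 fold changes under the offsets were -0.23 for Upf3a and 0.17 for Upf3b. A stretch of 151 bases of the main Upf3a transcript matches a transcript of Dnajc14 at 95.4% identity, and one of 142 bases matches Ldah at 95.1%, so that part of its reads could be shared with other genes.

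**Figure D2:**
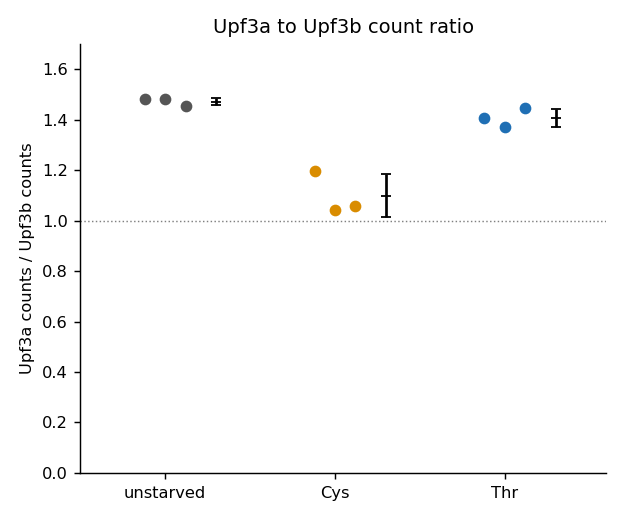
Upf3a counts divided by Upf3b counts (vertical axis, no unit) in each library of the 3 groups (points), with the mean and SD beside them and a dotted line at equal counts. The Cys-starved ratios, 1.04 to 1.198, lie below the unstarved ratios of 1.46 to 1.48 and the Thr-starved ratios of 1.37 to 1.44.

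The sequences around the annotated start sites of 4 members are shown because these members carry the contrasts described here: the paralogs that moved apart with Cys, the member that fell and the member with the largest increase. Each runs 5′ to 3′ on the strand of the gene from 250 bases before the start to 50 bases after it, read from RefSeq promoter windows on build GRCm38.p6, in which all 9 members were found. The windows are chr8:13785365-13785664 (plus strand) for Upf3a, chrX:37110273-37110572 (minus strand) for Upf3b, chr11:87086728-87087027 (minus strand) for Smg8 and chr7:24399378-24399677 (plus strand) for Smg9. Capitals mark matches to the motifs named next.
Upf3a: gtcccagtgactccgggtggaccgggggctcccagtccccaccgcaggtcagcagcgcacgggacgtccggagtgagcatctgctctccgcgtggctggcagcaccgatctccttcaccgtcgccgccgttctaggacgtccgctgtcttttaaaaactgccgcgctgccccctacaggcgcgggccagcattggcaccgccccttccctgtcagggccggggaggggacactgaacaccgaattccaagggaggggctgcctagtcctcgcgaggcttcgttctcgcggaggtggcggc
Upf3b: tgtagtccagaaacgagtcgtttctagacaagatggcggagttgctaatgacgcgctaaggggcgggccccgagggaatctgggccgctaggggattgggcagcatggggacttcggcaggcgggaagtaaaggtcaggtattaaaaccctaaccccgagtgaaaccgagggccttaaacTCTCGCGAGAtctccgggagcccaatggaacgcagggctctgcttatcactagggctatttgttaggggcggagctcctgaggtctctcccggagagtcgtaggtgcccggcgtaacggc
Smg8: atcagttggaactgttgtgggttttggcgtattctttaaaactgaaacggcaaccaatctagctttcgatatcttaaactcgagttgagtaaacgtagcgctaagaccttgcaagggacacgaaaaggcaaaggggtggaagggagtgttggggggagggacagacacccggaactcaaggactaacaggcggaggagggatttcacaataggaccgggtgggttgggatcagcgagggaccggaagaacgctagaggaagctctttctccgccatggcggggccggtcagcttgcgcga
Smg9: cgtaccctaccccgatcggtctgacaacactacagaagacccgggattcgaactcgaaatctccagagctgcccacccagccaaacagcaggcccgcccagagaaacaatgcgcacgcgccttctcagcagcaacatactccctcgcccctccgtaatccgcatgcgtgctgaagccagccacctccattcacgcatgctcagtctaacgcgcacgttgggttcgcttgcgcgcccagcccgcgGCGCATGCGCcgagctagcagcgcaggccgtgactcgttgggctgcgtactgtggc

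Motifs were searched on both strands. The letters TGATGNAA, an element bound by ATF4 with C/EBP partners, TGACGTCA, the cyclic AMP response element, and CACGTG, the E-box, were in none of the 9 windows. They were in 3.97%, 1.79% and 7.15% of the 32851 promoter windows of all genes. GCATGCGC, part of the motif of the factor NRF1, was in the windows of Upf1 and Smg9 and in 2.71% of all windows. In Smg9 the matches start at positions -6 and -4 counted from the start site, overlap and lie on both strands, as the 10 capital letters show, and in Upf1 they start at -246 and -244. TCGCGAGA, chosen after the windows had been read, was in those of Upf3b, with overlapping matches at -70 and -68, and Smg5, at -60 and -11, and in 0.995% of all windows. These are matches of letters and do not show binding. The window of Smg8 has 53.3% G and C and that of Upf1 72.3%, the lowest and the highest of the 9, beside a median of 52.7% over all windows.

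SMG1 is the kinase of UPF1, and Smg1 was the member with the widest spread between libraries of 1 group (ENSMUSG00000030655, chr7:118131308-118243670, minus strand, 63 exons). Unstarved libraries held 103.2, 112.5 and 98.2 CPM, Cys-starved libraries 107.4, 112.8 and 141.0 CPM and Thr-starved libraries 152.9, 139.0 and 117.6 CPM. All 3 Thr-starved libraries lay above the unstarved ones, and the Cys-starved libraries overlapped both other groups. Smg1 rose by 0.38 with Thr (SE 0.080, adjusted p = 0.00025). With Cys the log2 difference was 0.20 (SE 0.080, adjusted p = 0.054), with an unadjusted 95% interval of 0.04 to 0.37, and the difference of Thr from Cys was 0.18 (adjusted p = 0.056, interval 0.01 to 0.34). Neither of these passed the threshold.

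The Smg1 values and calls depended on single libraries and on the processing. The Cys difference was called without Cys-starved library 1 (0.28), Cys-starved library 2 (0.25), Thr-starved library 1 (0.20), Thr-starved library 3 (0.20) or unstarved library 2 (0.26), and it was 0.07 without Cys-starved library 3. The difference of Thr from Cys was called without Cys-starved library 3 (0.31), Thr-starved library 3 (0.28) or unstarved library 2 (0.19), and was 0.10 without Cys-starved library 1 and 0.10 without Thr-starved library 1. Without a Thr-starved library the Cys difference stayed at 0.20, so that the call changed and the difference did not. Some changes of processing also moved a call. The Cys difference was called with at least 10 counts in all libraries (0.21) and in the fit of only the groups compared (0.21). That of Thr from Cys was called with RLE normalization (0.19), the deposited size factors (0.22) and filterByExpr (0.19). The increase with Thr was called under all 19 alternatives, from 0.14 to 0.48. The lowest of these values came with offsets for GC content and length, which gave 0.14 (adjusted p = 0.026) with Thr, 0.13 (adjusted p = 0.059) with Cys and 0.01 (adjusted p = 0.91) for Thr against Cys.

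Smg1 has the longest main coding transcript of the members, with 15557 bases, and 23984 exonic bases over all its annotated transcripts. Within each group, the libraries in which Smg1 was above its group mean were those in which 1080 other genes with at least 10000 exonic bases were above theirs, in the median, and this held for 9 of 9 libraries. Deviations from a group's own mean constrain each other, so these 9 agreements are not independent. The median deviation of these long genes was between -0.03 and 0.03 on the log2 scale, and that of Smg1 between -0.21 and 0.24. The part of transcript length in the Smg1 values was not tested beyond the offsets above.

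**Figure D3:**
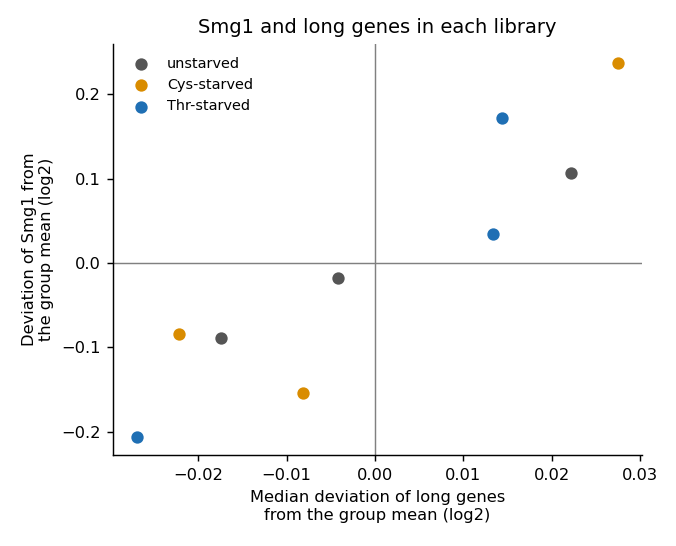
Deviation of Smg1 from its group mean (vertical axis, log2 CPM) against the median deviation of 1080 other genes with at least 10000 exonic bases (horizontal axis, log2 CPM), 1 point per library, coloured by group. The points lie at the lower left and the upper right only, so that both deviations have the same sign in 9 of 9 libraries. Deviations are taken from each group's own mean, so the 9 points are not independent.

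SMG8 and SMG9 form the subcomplex that restrains SMG1, and their mRNAs moved in opposite directions. Smg8 (ENSMUSG00000020495, chr11:87077732-87086774, minus strand, 4 exons) was at 49.5, 53.2 and 50.4 CPM in unstarved, 45.0, 46.3 and 45.5 CPM in Cys-starved and 39.3, 41.1 and 40.6 CPM in Thr-starved libraries. It was the member that fell in both starvations, and the 3 groups did not overlap. The log2 fold change was -0.34 with Thr (SE 0.037, adjusted p = 2.8e-08) and -0.16 with Cys (SE 0.036, adjusted p = 0.00094), and Thr was lower than Cys by a log2 difference of -0.18 (adjusted p = 0.00023).

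Smg9 (ENSMUSG00000002210, chr7:24399619-24422778, plus strand, 14 exons) had 22.8, 23.7 and 24.7 CPM in unstarved libraries. It reached 27.9, 26.2 and 27.0 CPM in Cys-starved and 44.2, 44.5 and 41.0 CPM in Thr-starved libraries. The increase of 0.86 with Thr (SE 0.045, adjusted p = 9.0e-14), or 1.82-fold, was the largest of the 9 members. With Cys the increase was 0.19 (SE 0.046, adjusted p = 0.0023). The direct difference was 0.67 (adjusted p = 6.0e-12), and 1.10 with offsets for GC content and length.

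SMG5 and SMG6 bind phosphorylated UPF1 and start the breakdown of the message, SMG6 as an endonuclease. Smg5 (ENSMUSG00000001415, chr3:88336260-88362338, plus strand, 22 exons) had 189.1, 183.9 and 186.5 CPM in unstarved, 206.5, 202.1 and 201.5 CPM in Cys-starved and 300.4, 309.3 and 306.6 CPM in Thr-starved libraries. Cys-starved libraries lay just above the unstarved range and Thr-starved ones far above it. The increases were 0.71 (SE 0.023, adjusted p = 2.1e-17) with Thr and 0.12 (SE 0.023, adjusted p = 0.00015) with Cys, the smallest called change with Cys among the members. The direct difference was 0.59 (adjusted p = 7.5e-16). With the deposited size factors the Cys value was 0.08, still called.

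Smg6 (ENSMUSG00000038290, chr11:74925823-75164448, plus strand, 19 exons) had 58.4, 61.2 and 59.9 CPM in unstarved, 73.2, 71.3 and 73.5 CPM in Cys-starved and 98.5, 99.0 and 96.4 CPM in Thr-starved libraries. Again the 3 groups were separate. Its increase with Thr, 0.71 (SE 0.029, adjusted p = 1.6e-15), was close in size to that of Smg5, and its increase with Cys, 0.28 (SE 0.030, adjusted p = 1.2e-07), came second among the members after Upf1. The direct difference was 0.43 (adjusted p = 1.0e-11). Smg6 shares 126 exonic bases with Srr on the opposite strand, which held 1.27 CPM on average.

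**Figure D4:**
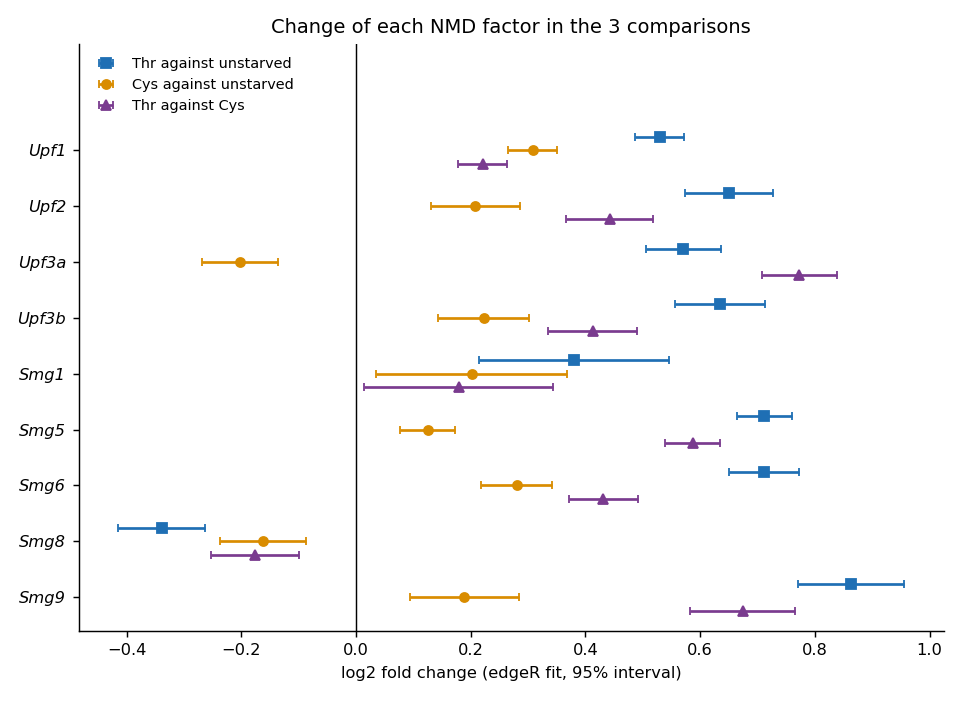
Log2 fold change (horizontal axis) of each NMD factor with its unadjusted 95% interval in the edgeR fit, for Thr against unstarved (squares), Cys against unstarved (circles) and Thr against Cys (triangles). Upf3a lies on opposite sides of 0 with Thr (0.57) and Cys (-0.20), Smg8 lies below 0 in all 3 comparisons, and the intervals of Smg1 are the widest.

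The mRNAs of 6 members (Upf1, Upf2, Upf3b, Smg1, Smg5 and Smg6) are known from earlier work as substrates of NMD itself. All 6 of them rose with Thr starvation, with a median log2 fold change of 0.64, and 5 of 6 rose with Cys, with a median of 0.21. Among genes averaging 5 CPM or more, 41.5% were called higher with Thr and 24.6% with Cys. The difference between these 6 and the other 3 members was not tested. With Thr, Upf3a and Smg9 rose and Smg8 fell, and with Cys, Smg9 rose and Upf3a and Smg8 fell. The annotation lists a transcript of the NMD class for Smg1, Smg5 and Smg6, 1 each, and for 26.25% of the protein-coding genes in the table. Counts per gene do not separate such transcripts from the others.

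Levels of different genes were compared per kb of all annotated exons. In unstarved cells the order was Upf1 (58.6 CPM per kb), Smg5 (26.8), Smg8 (15.9), Upf2 (12.1), Upf3a (11.09), Upf3b (11.05), Smg6 (7.08), Smg9 (6.41) and Smg1 (4.36). Of the neighbours in this order, only Upf3a and Upf3b overlapped between libraries, at 10.9 to 11.4 and 10.8 to 11.5 CPM per kb. With Thr starvation Smg8 moved from place 3 to place 6, at 12.5 CPM per kb, behind Upf2 (19.0), Upf3b (17.2) and Upf3a (16.5). Smg9 (11.7) and Smg6 (11.6) then overlapped. With Cys starvation Smg8 (14.2) overlapped Upf2 (14.0), which overlapped Upf3b, and Upf3b (12.9) lay above Upf3a (9.63). Upf1, Smg5 and Smg1 kept places 1, 2 and 9 in all 3 groups. The length used matters for the middle of the order: per kb of the main coding transcript Upf3a took place 3 in unstarved cells, at 31.6 CPM per kb, ahead of Upf3b at 18.9, with Upf1, Smg5 and Smg1 at the same places as before.

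As a description over the 9 libraries, which form 3 groups, the log2 levels of Smg8 had a negative Pearson's r with every other member, from -0.71 with Smg1 to -0.97 with Upf1. The highest value was 0.99, between Smg5 and Smg9. Among 11409 other genes averaging 5 CPM or more, those whose log2(CPM + 0.5) followed Smg9 most closely over the 9 libraries were N6amt1, Plpbp and Dusp11, with r = 0.998 for each. Those most like Upf1 were Zfp607b (r = 0.999), Mgme1 (r = 0.997) and Arhgef2 (r = 0.997).

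Of 28 other genes of the pathway, 26 were called with Thr (18 higher, 8 lower), 17 with Cys (7 higher, 10 lower) and 24 between Thr and Cys (18 higher in Thr, 6 lower). These are 92.9%, 60.7% and 85.7% of the list, beside 80.6%, 55.0% and 80.6% of the genes averaging 5 CPM or more, so that the shares with Cys and between Thr and Cys lay near those of all such genes. Their median log2 fold changes were 0.20, -0.03 and 0.18. The split with Cys moved to 6 higher and 13 lower with the deposited size factors and to 5 higher and 13 lower with offsets for GC content and length. The list was chosen with earlier results of these data known and is made of 4 groups. Their counts are to be read beside the genes averaging 5 CPM or more. Of those, 41.5% were called higher and 39.1% lower with Thr, and 24.6% higher and 30.5% lower with Cys. All 8 genes of decapping and decay were called higher with Thr, with a median of 0.39, and with Cys 4 rose and 1 fell. Among these 8, Dcp1b, a decapping cofactor, passed with Thr only just (adjusted p = 0.0495) and its Thr-starved and unstarved libraries overlapped. The count of the list's genes higher with Thr was 17 in place of 18 with DESeq2 or at least 10 counts in all libraries. The fit of only the groups compared and thinned counts also gave 17. So did an adjusted p of 0.01 and offsets for GC content and length. With those offsets 23 of the 28 genes were called with Thr, in place of 26. Of 7 genes of the exon junction complex, 4 rose and 2 fell with Thr, and 1 rose and 3 fell with Cys. Of 6 genes of termination and of the mRNA ends, 3 rose and 3 fell with Thr, and 4 fell with Cys. Of 7 accessory genes, 3 rose and 3 fell with Thr, and 2 rose and 2 fell with Cys.

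Among these 28 pathway genes, the largest increase with Thr was that of Pnrc2, a decapping adaptor, at 0.80 (SE 0.033, adjusted p = 1.7e-15), and the largest decrease was that of Mov10, a helicase, at -0.47 (SE 0.028, adjusted p = 1.2e-12). With Cys these places were held by the exon junction genes Casc3, at 0.35 (SE 0.032, adjusted p = 1.5e-08), and Rbm8a, at -0.23 (SE 0.025, adjusted p = 2.1e-07). Rbm8a rose with Thr, by 0.28 (adjusted p = 1.5e-09), and its reads could be shared with the copy Rbm8a2. Between Thr and Cys the extremes were Dis3, a ribonuclease, at 0.69 (SE 0.024, adjusted p = 8.9e-17), and Dhx34, a helicase, at -0.38 (SE 0.060, adjusted p = 6.6e-06). Like Upf3a, Dis3 fell with Cys, by a log2 value of -0.11 (adjusted p = 0.00097), and rose with Thr, by 0.59 (adjusted p = 1.2e-15).

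**Figure D5:**
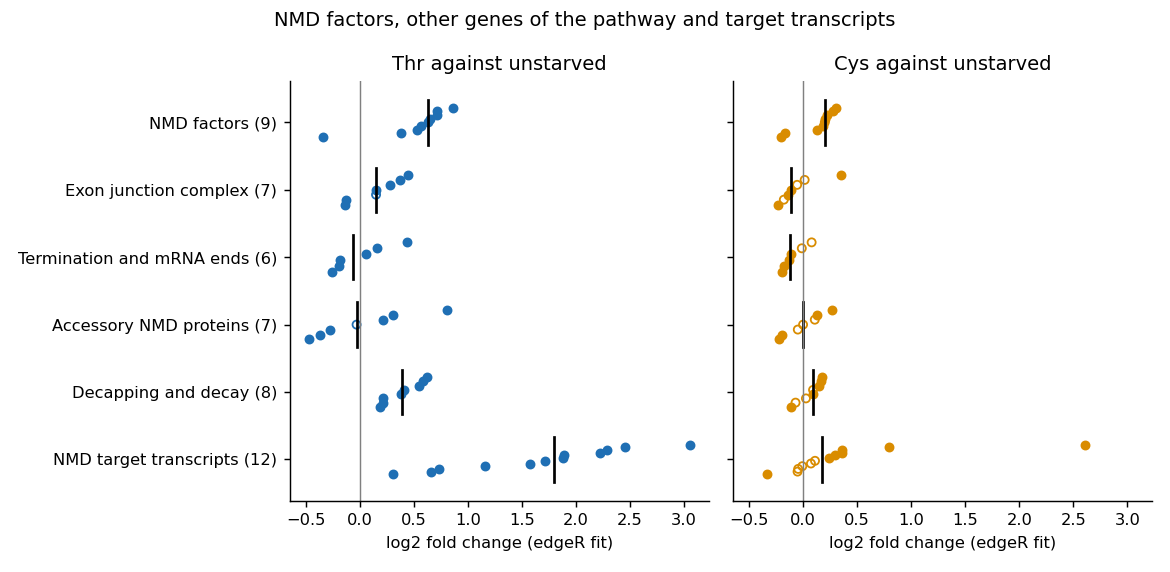
Log2 fold change (horizontal axis) of the 9 NMD factors, the 28 other pathway genes in 4 groups and 12 NMD target transcripts, with Thr starvation (left) and Cys starvation (right). Filled points were called and open points were not, vertical bars are medians (0.63 and 0.20 for the factors), and the number of genes stands in brackets.

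A list of 12 transcripts known as NMD targets contained snoRNA host transcripts and stress genes. It was chosen with earlier results of these data known. The counts below therefore describe the list and are not an independent comparison with other genes. All 12 were called higher with Thr starvation, with a median log2 fold change of 1.80, beside 41.5% of the genes averaging 5 CPM or more. With Cys 7 of them were called, 6 higher and 1 lower, with a median of 0.18, and this share of 58.3% lay near the 55.0% of such genes. All 12 were called higher in Thr-starved than in Cys-starved libraries, with a median of 1.34, beside 43.7% of such genes. Atf3, a stress-induced transcription factor, had the largest increase in both starvations, from 3.54 to 3.84 CPM in unstarved to 29.3 to 32.1 CPM in Thr-starved and 21.7 to 23.4 CPM in Cys-starved libraries, a log2 increase of 3.06 with Thr (adjusted p = 7.3e-21) and 2.61 with Cys (adjusted p = 2.3e-18). Upp1, a uridine phosphorylase, was the target that fell with Cys, at -0.33 (SE 0.025, adjusted p = 5.4e-10), and was higher with Thr, at 0.66 (adjusted p = 3.2e-16). Ddit3, which encodes CHOP, had the largest difference of Thr from Cys, 2.21 (SE 0.042, adjusted p = 3.8e-21). Atf4, Atf3 and Ddit3 are also known to be induced by transcription in AA starvation. Counts of mature mRNA do not separate synthesis from decay for any of the 12 transcripts, and the part of transcription was not tested. The median over these targets with Thr exceeded that over the NMD factors, 0.63, while the medians with Cys were 0.18 and 0.20.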

How the data were processed

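The authors mapped paired-end reads of poly(A) mRNA (directional libraries, 1 sequencing kit) with STAR 2.7.4a to GRCm38 and counted them per gene with HTSeq; the strand and overlap settings are not given in the sources used here. They deposited these counts without normalization, and a second table whose signal values are the same counts divided by 1 DESeq2 size factor per library (R 4.0.3, version given as 1.30.1 in the submitters' processing notes). Every test used the raw counts, and the signal table served only for an alternative scaling. The labels' design and treatment text describes Arg and Leu starvation, and such samples were not analysed here.

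Counts were tested in R 4.3.3 with edgeR 4.0.16 (TMM, quasi-likelihood F test) over the 20143 genes with at least 1 count, all 9 libraries in 1 fit with group as the only term, and Benjamini-Hochberg adjustment per comparison at 0.05. The common coefficient of variation between replicates was 3.53%. Replicate numbers come from the sample titles, which do not say that same-numbered libraries were prepared together. Each library counted as 1 replicate, as labelled. The chi-square per gene between 2 libraries of a group was 1.98 to 2.13 over genes of 10 to 100 counts and 2.61 to 5.21 over genes of 1000 to 10000 counts. Independent counts would give 1 and pairs counted as 2 reads would give 2. The members, the lists and the motifs were chosen with earlier results of these data known. Named genes are all members, the called gene with the largest increase and decrease of each list in each comparison (mean of at least 1 CPM), and the 3 genes most like the members with the largest change; 1 gene that the rule names is not reported here, and further genes named as examples were chosen after their values were seen. Genes were annotated with GENCODE M21, which named 20171 of the deposited genes. Transcripts of at least 95% identity over 100 bases were searched with BLAST 2.17.0. Tables and plots used Python 3.11.15, pandas 2.3.3 and matplotlib 3.10.9.

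Alternatives were RLE normalization, the deposited size factors, filterByExpr, at least 10 counts in all libraries, DESeq2 1.42.0, a fit of only the groups compared, an adjusted p of 0.01, a log2 fold change of 0.5 or more in either direction, the replicate block, offsets for GC content and length (loess, span 0.3) with and without the block, thinning to the smallest library, and each library left out. On simulated counts for Thr against unstarved over 20142 genes, edgeR recovered 60 of 67 genes changed 1.2-fold and all 67 changed 1.5-fold, with 6 false calls. A further 66 genes were changed 2-fold, and all changed genes averaged 5 CPM or more. The simulation held no trend with GC content and no reads counted in pairs. Its rates need not hold for the real counts, in which 63.0% of genes were called.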

Additional observations from a re-analysis of the deposited data

Results flagged for a closer look

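The effects of Thr and of Cys starvation differed for 8 of the 9 NMD factors in edgeR's test of the direct difference between the starved groups, in which no library of one group overlapped the other. The log2 difference of Thr from Cys was 0.22 for Upf1 (adjusted p = 2.6e-09), 0.44 for Upf2 (adjusted p = 3.9e-10), 0.77 for Upf3a (adjusted p = 1.6e-15) and 0.41 for Upf3b (adjusted p = 1.9e-09). It was 0.59 for Smg5 (adjusted p = 7.5e-16), 0.43 for Smg6 (adjusted p = 1.0e-11), -0.18 for Smg8 (adjusted p = 0.00023) and 0.67 for Smg9 (adjusted p = 6.0e-12). Smg1 did not pass (adjusted p = 0.056). In Upf3a the effects against unstarved cells had opposite signs, and in the other 7 genes they had the same sign and were larger with Thr. Of all genes tested, 62.0% were called in this comparison and 65.8% had libraries that did not overlap. Among genes averaging 5 CPM or more, these shares were 80.6% and 81.6%. Both shares were 88.9% among the members, which lay near those of such genes.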

How the results depend on the processing

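No alternative reversed the direction of a member's change. Of the members' fold changes under the alternatives, 499 stayed on the same side of the threshold and 14 passed it where the reported value had not, all of them Smg1 with Cys (7 of 19 alternatives, adjusted p from 0.012 to 0.46 over all 19) or with Thr against Cys (7 of 19, adjusted p from 0.00038 to 0.92). Where the log2 fold change also had to reach 0.5 in either direction, 0 NMD factors were called with Cys and 3 for Thr against Cys, 4, 0 and 3 pathway genes were called with Thr, with Cys and for Thr against Cys, and 2 NMD targets with Cys. Counts over all genes fell under that rule to 6520, 1070 and 5907. Leaving out a library gave 8 to 9 called factors with Cys and for Thr against Cys, and 9 with Thr. The correlations between same-numbered libraries, as deviations from the group mean, were 0.106, -0.073 and 0.010 for Thr and unstarved, so the numbers were not taken to pair the libraries. With the replicate block in the model 9, 8 and 8 factors were called, as without it, and 12488, 7063 and 12334 of all genes. Offsets for GC content and length moved single values by more than 1.5 times, for Upf1 to 0.86 with Thr, and the cause was not tested. The 3 libraries per group limit the estimate of spread, and small changes may have been missed.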
